A study of Homo sapiens with 12 samples.

Results

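The proteasome subunit genes measured here are the genes that RefSeq names PSMA, PSMB, PSMC, PSMD, PSME or PSMG with a number, together with PSMF1. The interferon-induced PSMB8 and PSMB9 and the pseudogenes were left out. Probes were assigned through the transcript accession that the array lists for each of them. The rule found 46 genes on 61 of 34127 gene probes, and 45 of them were among the 20821 genes tested. PSMA8, the testis form of a core subunit, was not well above background on any array and was not tested. Another 44 members were well above background on all 12 arrays, and PSMB11, the thymus form of a catalytic subunit, on 11.

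The arrays measured cytoplasmic RNA of U2OS, a human osteosarcoma cell line, after transfection with a control siRNA or with an siRNA that targets 1 of the export factors DBP5, GLE1 and IPPK. DBP5 is an RNA helicase of the nuclear pore, GLE1 stimulates it, and IPPK makes the inositol phosphate that GLE1 binds, so that all of them act in mRNA export. The siRNA was used at 20 nM with a lipid reagent, the cells were cultured for 48 h, and the cytoplasm was released with a mild detergent. There were 3 one-colour arrays for each of the 4 siRNAs, and 1 array of each siRNA lay on each of 3 slides. A transient knock-down lowers a transcript without removing it, and the cells without a knock-down also received an siRNA.

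The proteasome is the protease that degrades proteins marked with ubiquitin in the cytoplasm and nucleus. Its barrel-shaped core is built of outer rings of alpha subunits, which form a gate, and inner rings of beta subunits, some of which carry the protease sites. A regulatory particle caps the core: its base holds a ring of ATPases that unfold the substrate, and its lid removes ubiquitin. Dedicated chaperones, which leave the finished particle, assemble the core and the base, and other activators can take the place of the regulatory particle.

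The targeted transcripts were lower in their own knock-downs. DDX19B, the gene of DBP5, was at 0.0643 of control after DBP5 siRNA, GLE1 at 0.102 after GLE1 siRNA and IPPK at 0.186 after IPPK siRNA. Other targets moved as well: DDX19B was at 0.498 of control after GLE1 siRNA, and IPPK at 0.419 after DBP5 siRNA. Between 70.9 and 77.7% of probes were well above background on an array. Of 6 mesenchymal and osteoblast markers, VIM, COL1A1, SPARC, RUNX2 and TGFBI were well above background on all 12 arrays, and COL1A2 on 5. Among markers of other lineages EPCAM and PTPRC were also well above background on all 12 arrays, CD3E on 11, CDH1 on 8, ALB on 5 and GFAP on 1. CDH1 read between 3.33 and 3.71 on the log2 scale on the control arrays and between 6.41 and 7.02 after GLE1 knock-down. EPCAM fell to 0.657 of control after DBP5 and 0.527 after IPPK knock-down and was at 0.747 after GLE1 knock-down without passing the test. COL1A1 fell to 0.779 after DBP5 and 0.253 after IPPK knock-down and was at 1.05 after GLE1 knock-down without passing the test. COL1A2 fell to 0.550 and 0.540 after DBP5 and IPPK knock-down, RUNX2 to 0.612 after IPPK and SPARC to 0.777 after GLE1 knock-down. In the other direction, TGFBI rose to 1.42 and 1.38 times control after GLE1 and IPPK knock-down, and VIM to 1.25 times after DBP5 knock-down. The remaining comparisons of these 6 markers with control did not pass the test. Of the RNAs that stay in the nucleus, KCNQ1OT1 was at 1.59, 1.85 and 1.17 times control in the DBP5, GLE1 and IPPK knock-downs. MALAT1 fell to 0.472 after IPPK knock-down and was at 0.689 and 0.809 after DBP5 and GLE1 knock-down without passing the test. The part of nuclear RNA or of other lineages in the differences below was not tested. In such bulk RNA a lower level in every cell and a smaller share of cells with the transcript cannot be told apart. The arrays were normalized to each other, so every difference is relative to the other transcripts on the array and a change common to all transcripts would not be seen.

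Most proteasome transcripts changed little in size, and more of them fell than rose after DBP5 or GLE1 knock-down. A change was called at a limma adjusted p under 0.05 over all genes tested. After DBP5 knock-down 19 of the 45 members fell and 5 rose, whereas over all genes 27.1% fell and 27.3% rose. After GLE1 knock-down 25 fell and 5 rose, against 30.4% and 32% of all genes. After IPPK knock-down 12 fell and 12 rose, which was close to the 28.2% and 27.3% of all genes. The median log2 difference of the members from control was −0.13 with DBP5 siRNA, −0.21 with GLE1 siRNA and −0.02 with IPPK siRNA, beside −0.02, 0.03 and −0.03 for all genes. These 3 comparisons share the same control arrays. Under alternative normalizations, filters and probe rules and with single arrays left out, 18 of the 24 calls after DBP5, 24 of the 30 after GLE1 and 15 of the 24 after IPPK knock-down held every time. This count leaves out the methods' t-test, a paired test that the study's statistics section names. For its array gene lists the study named rank products and a 1.5-fold limit instead. After Benjamini-Hochberg adjustment the t-test kept 4, 20 and 13 of these calls. Those kept after DBP5 knock-down were PSMD8, PSMD11, PSMG3 and PSMF1. The calls that did not hold under the other alternatives were those of PSMA1, PSMC2, PSMD6, PSMG1, PSMG4 and PSME4 after DBP5 knock-down, and PSMA1, PSMA5, PSMA7, PSMB10, PSME4 and PSMF1 after GLE1 knock-down. After IPPK knock-down they were PSMA2, PSMA5, PSMC6, PSMD4, PSMD9, PSMD10, PSMD13, PSMD14 and PSME1.

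The size of these changes was mostly below 1.5-fold. Called changes of at least 1.5-fold were found for 3 of 45 members in DBP5, 7 in GLE1 and 3 in IPPK knocked-down cells, where the shares of all genes were 24.7, 33.8 and 25.8%. After DBP5 knock-down 0 fell and 3 rose, beside 12 and 12.7% of all genes. After GLE1 knock-down 5 fell and 2 rose (17.1 and 16.7% of all genes), and after IPPK knock-down 1 fell and 2 rose (12.7 and 13.1%). Between 84.4 and 93.3% of members stayed within 1.5-fold of control, compared with 65.5 to 74.5% of all genes. Within single slides the median of the members lay between −0.14 and −0.10 for DBP5 and between −0.26 and −0.14 for GLE1 knock-down. For IPPK knock-down it was −0.00 on slide 1, −0.03 on slide 2 and 0.02 on slide 3, so its sign was not stable.

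**Figure D1:**
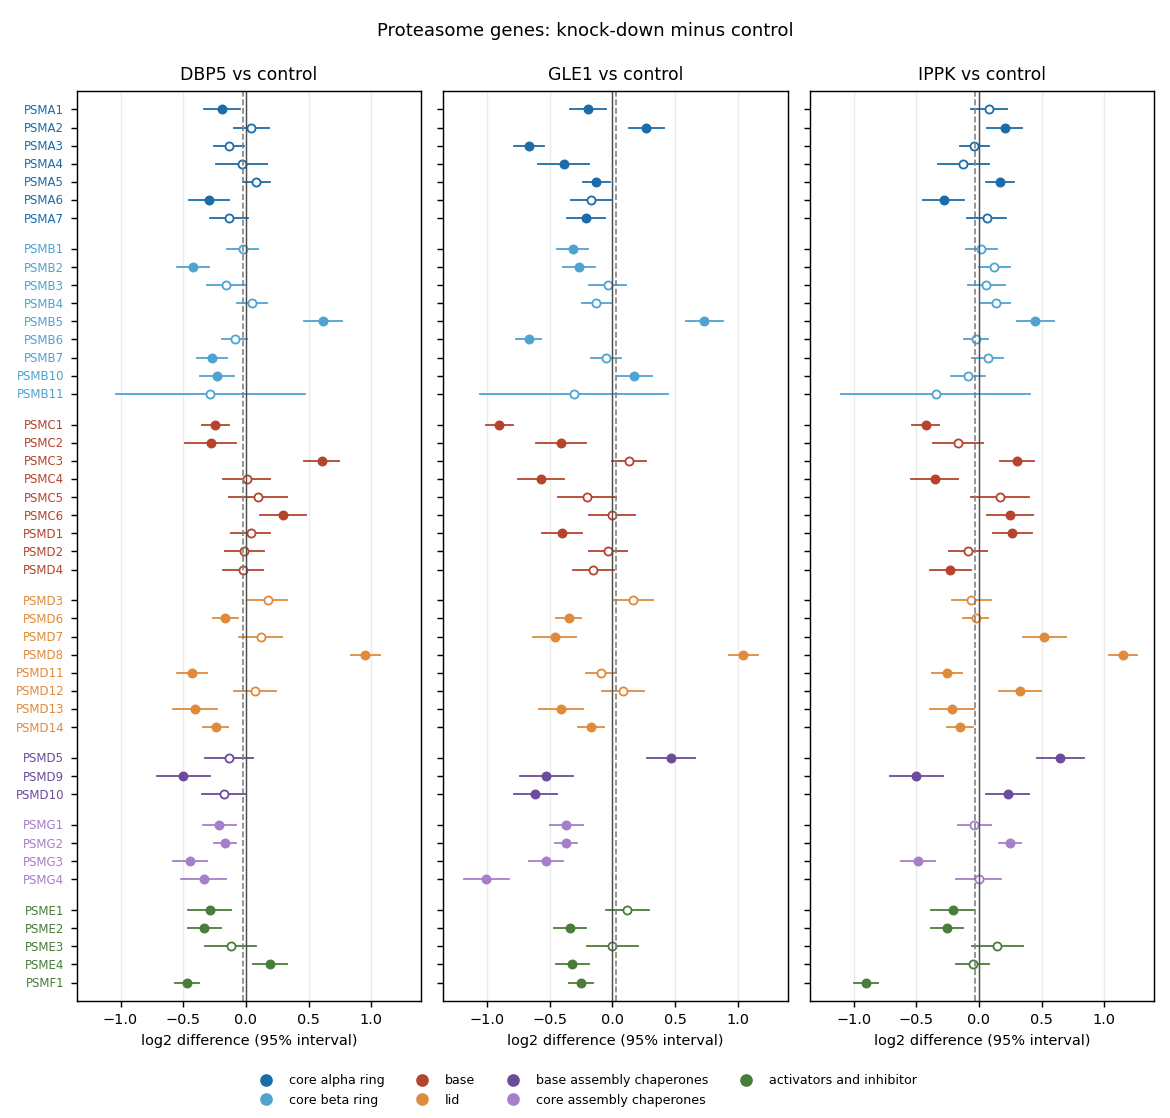
Log2 difference from control of the 45 tested proteasome genes (x axis), with a panel each for the DBP5, GLE1 and IPPK knock-downs. Lines are 95% intervals from limma with 3 arrays per siRNA, and genes are on the y axis, coloured by part of the complex. Filled circles are genes with a limma adjusted p under 0.05, and the dashed line is the median of all genes tested. PSMD8 stands at the right in every panel (0.95, 1.04 and 1.15), and PSMG4 and PSMC1 stand at the left after GLE1 knock-down (−1.01 and −0.90).

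In the alpha ring of the core, PSMA3 showed the largest change, a fall to 0.630 of control after GLE1 knock-down (log2 difference −0.67 ± 0.05 SE, limma adjusted p = 1.3e-06). After GLE1 knock-down 5 of the 7 tested alpha subunits fell, namely PSMA1, PSMA3, PSMA4, PSMA5 and PSMA7, and PSMA2 rose to 1.21 times control, where 30.4% of all genes fell and 32% rose. The falls of the other four were smaller, from 0.764 of control for PSMA4 to 0.915 for PSMA5. After DBP5 knock-down PSMA1 fell to 0.876 and PSMA6 to 0.817 of control, and no alpha subunit rose. After IPPK knock-down PSMA6 fell to 0.822, while PSMA2 rose to 1.15 and PSMA5 to 1.12 times control. All of these subunits are needed for a complete ring, and their transcripts changed unequally.

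The beta ring held members that moved in opposite directions. PSMB5, PSMB6 and PSMB7 carry the chymotrypsin-like, caspase-like and trypsin-like protease sites, and PSMB5 is the main target of the drug bortezomib. PSMB5 read 14.88, 14.84 and 14.89 on the log2 scale on the control arrays, 15.34, 15.57 and 15.54 after DBP5, 15.62, 15.61 and 15.58 after GLE1, and 15.21, 15.38 and 15.36 after IPPK knock-down. Every knocked-down array lay above every control array. PSMB5 rose to 1.53 times control after DBP5 (limma adjusted p = 2.2e-05), 1.66 times after GLE1 (adjusted p = 3.8e-06) and 1.37 times after IPPK knock-down (adjusted p = 0.00021).

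PSMB6, the subunit of the caspase-like site, read 15.89, 15.84 and 15.86 in control, 15.75, 15.79 and 15.78 after DBP5, 15.23, 15.18 and 15.18 after GLE1, and 15.77, 15.86 and 15.87 after IPPK knock-down. The GLE1 arrays were far below all others, the DBP5 arrays lay just below the control arrays, and the IPPK arrays overlapped them. PSMB6 fell to 0.630 of control after GLE1 knock-down (log2 difference −0.67 ± 0.04 SE, limma adjusted p = 3.1e-07). Its log2 difference from control was −0.09 after DBP5 and −0.02 after IPPK knock-down, and neither passed the test. PSMB7 fell to 0.830 of control after DBP5 knock-down and was at 0.966 after GLE1 and 1.05 after IPPK knock-down without passing the test there. The transcripts of the 3 standard protease sites thus moved apart after GLE1 knock-down, with PSMB5 higher, PSMB6 lower and PSMB7 at 0.966 of control.

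PSMB2, a beta subunit without a protease site, read 14.41, 14.31 and 14.46 in control, 13.98, 14.01 and 13.93 after DBP5, 14.20, 14.07 and 14.10 after GLE1, and 14.58, 14.49 and 14.48 after IPPK knock-down. The DBP5 and GLE1 arrays lay below all control arrays, and the IPPK arrays above them. PSMB2 fell to 0.748 of control after DBP5 (limma adjusted p = 0.00011) and to 0.831 after GLE1 knock-down (adjusted p = 0.0019), and its value of 1.09 after IPPK knock-down did not pass the test. Its second probe read 0.704, 0.841 and 1.03. PSMB1 fell to 0.803 of control after GLE1 knock-down. PSMB10, the interferon-induced subunit that can replace PSMB7, fell to 0.854 after DBP5 and rose to 1.13 times control after GLE1 knock-down. PSMB3 and PSMB4 did not pass the test against control in any knock-down, and PSMB11, the dimmest member tested, had intervals too wide to show a difference, with standard errors of 0.34 on the log2 scale.

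In the base, the ATPase transcripts also moved in both directions. PSMC1 to PSMC6 encode the ATPases, of which PSMC1 opens the gate of the core with its tail. PSMC1 read 15.52, 15.49 and 15.48 in control, 15.19, 15.29 and 15.28 after DBP5, 14.63, 14.58 and 14.57 after GLE1, and 15.01, 15.11 and 15.09 after IPPK knock-down. The 4 groups did not overlap, with control highest, then DBP5, IPPK and GLE1. PSMC1 fell to 0.535 of control after GLE1 knock-down (log2 difference −0.90 ± 0.05 SE, limma adjusted p = 5.8e-08), to 0.845 after DBP5 (adjusted p = 0.0014) and to 0.745 after IPPK knock-down (adjusted p = 2.6e-05). Its second probe read 0.504 after GLE1, 0.803 after DBP5 and 0.669 after IPPK knock-down.

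PSMC3, another ATPase whose tail reaches into the core, moved the other way. It read 13.95, 13.89 and 13.89 in control, 14.50, 14.63 and 14.41 after DBP5, between 13.99 and 14.12 after GLE1, and 14.18, 14.21 and 14.23 after IPPK knock-down. All knocked-down arrays lay above the control arrays, those of DBP5 by the most. PSMC3 rose to 1.52 times control after DBP5 (limma adjusted p = 1.3e-05) and to 1.23 times after IPPK knock-down (adjusted p = 0.0018), and its value of 1.10 after GLE1 knock-down did not pass the test (adjusted p = 0.088).

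PSMC4 read 13.27, 13.15 and 13.35 in control, 13.08, 13.31 and 13.39 after DBP5, 12.75, 12.61 and 12.69 after GLE1, and 12.86, 12.91 and 12.94 after IPPK knock-down. The DBP5 arrays overlapped the control arrays, and the GLE1 and IPPK arrays lay below them. PSMC4 fell to 0.672 of control after GLE1 (limma adjusted p = 0.00013) and to 0.783 after IPPK knock-down (adjusted p = 0.0041). PSMC2 fell to 0.823 after DBP5 and 0.752 after GLE1 knock-down, and PSMC6 rose to 1.23 and 1.19 times control after DBP5 and IPPK knock-down. PSMC5 did not pass the test against control. Of the 6 ATPases, 3 fell and none rose after GLE1 knock-down, when 30.4% of all genes fell and 32% rose. In each of the other knock-downs 2 fell and 2 rose, which is near the 27.1 to 28.2% of all genes that fell and the 27.3% that rose.

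The other base subunits were the scaffold proteins PSMD1 and PSMD2 and the ubiquitin receptor PSMD4. PSMD1 fell to 0.756 of control after GLE1 knock-down (limma adjusted p = 0.00052) and rose to 1.20 times control after IPPK knock-down (adjusted p = 0.0084). PSMD4 fell to 0.854 after IPPK knock-down. By its brightest probe PSMD2 did not pass the test in any of the comparisons, and its log2 differences from control were between −0.09 and −0.01. Its second probe read 1.19 times its DBP5 level after GLE1 knock-down (limma adjusted p = 0.041), with log2 differences from control of −0.14 after DBP5 and 0.11 after GLE1 knock-down.

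The lid contained the largest rise. PSMD8, a scaffold subunit of the lid, read 14.46, 14.43 and 14.50 in control, 15.32, 15.46 and 15.47 after DBP5, 15.54, 15.46 and 15.52 after GLE1, and 15.59, 15.60 and 15.64 after IPPK knock-down. Every knocked-down array lay above every control array, by more than the spread within any group. PSMD8 rose to 1.94 times control after DBP5 (log2 difference 0.95 ± 0.05 SE, limma adjusted p = 1.3e-07), 2.06 times after GLE1 (adjusted p = 3.4e-08) and 2.22 times after IPPK knock-down (adjusted p = 3.1e-08). It was the only member that changed by at least 1.5-fold in all 3 comparisons. The array carried 1 probe for it, so that no second probe was at hand to set beside it.

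PSMD7, the partner of the deubiquitinating enzyme PSMD14 in the lid, read 13.86, 14.03 and 13.87 in control, 13.98, 14.03 and 14.11 after DBP5, 13.35, 13.56 and 13.47 after GLE1, and 14.33, 14.48 and 14.51 after IPPK knock-down. The GLE1 arrays lay below and the IPPK arrays above all control arrays. PSMD7 fell to 0.726 of control after GLE1 (limma adjusted p = 0.00037) and rose to 1.44 times control after IPPK knock-down (adjusted p = 0.00020). After DBP5 knock-down its value of 1.09 did not pass the test. PSMD14 itself fell in all of the knock-downs, to 0.846, 0.889 and 0.901 of control with the siRNAs against DBP5, GLE1 and IPPK.

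Other scaffold subunits of the lid changed by less. PSMD13 fell to 0.757, 0.753 and 0.860 of control when DBP5, GLE1 and IPPK were knocked down. PSMD11 fell to 0.744 after DBP5 and 0.840 after IPPK knock-down, and PSMD6 fell to 0.892 after DBP5 and 0.786 after GLE1 knock-down. PSMD12 rose to 1.25 times control after IPPK knock-down only, and PSMD3 did not pass the test against control.

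Chaperones that assemble the base are PSMD5, PSMD9 and PSMD10, each of which holds ATPases before the base is complete. PSMD9 read 14.84, 14.76 and 14.83 in control, 14.17, 14.40 and 14.35 after DBP5, 14.24, 14.30 and 14.31 after GLE1, and 14.09, 14.39 and 14.45 after IPPK knock-down. The control arrays were above all others. PSMD9 fell to 0.707, 0.695 and 0.708 of control when DBP5, GLE1 and IPPK were knocked down (limma adjusted p = 0.0011, 0.00061 and 0.0011). Its second probe read 0.592 and 0.672 after DBP5 and GLE1 knock-down, but 0.977 after IPPK knock-down, so that the fall after IPPK siRNA was seen with 1 of its 2 probes.

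PSMD5 read 10.97, 10.82 and 10.92 in control, 10.88, 10.82 and 10.60 after DBP5, 11.50, 11.25 and 11.37 after GLE1, and 11.58, 11.51 and 11.57 after IPPK knock-down. The DBP5 arrays overlapped the control arrays, and the GLE1 and IPPK arrays lay above them. PSMD5 rose to 1.38 times control after GLE1 (limma adjusted p = 0.00065) and 1.57 times after IPPK knock-down (adjusted p = 8.1e-05). The second probe of PSMD5 read 1.09 after GLE1 knock-down without passing the test (adjusted p = 0.15), so that this rise was seen with 1 of its 2 probes. It read 1.46 after IPPK knock-down, and 1.18 after DBP5 knock-down (adjusted p = 0.014), where the brighter probe was at 0.911 without passing the test. PSMD10, also known as gankyrin, fell to 0.652 of control after GLE1 and rose to 1.17 times control after IPPK knock-down.

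Chaperones of the core work as pairs, PSMG1 with PSMG2 and PSMG3 with PSMG4, and help the alpha ring to form. All 4 fell after DBP5 and after GLE1 knock-down, by the brightest probe of each gene, when 27.1% and 30.4% of all genes fell. PSMG3 read 14.38, 14.36 and 14.32 in control, 13.96, 13.90 and 13.87 after DBP5, 13.96, 13.73 and 13.77 after GLE1, and 13.90, 13.86 and 13.85 after IPPK knock-down. Every knocked-down array was below every control array. PSMG3 fell to 0.735, 0.692 and 0.715 of control when DBP5, GLE1 and IPPK were knocked down (limma adjusted p = 0.00012, 2.3e-05 and 6.3e-05). PSMG1 fell to 0.864 and 0.775 of control after DBP5 and GLE1 knock-down and was at 0.974 after IPPK knock-down without passing the test. PSMG2 fell to 0.891 and 0.773 after DBP5 and GLE1 knock-down and rose to 1.19 times control after IPPK knock-down.

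PSMG4 read 13.70, 13.78 and 13.63 in control, 13.51, 13.25 and 13.34 after DBP5, 12.84, 12.63 and 12.62 after GLE1, and 13.75, 13.70 and 13.66 after IPPK knock-down. The GLE1 arrays were lowest, the DBP5 arrays lay between them and control, and the IPPK arrays overlapped the control arrays. PSMG4 fell to 0.498 of control after GLE1 (log2 difference −1.01 ± 0.08 SE, limma adjusted p = 1.4e-06) and to 0.793 after DBP5 knock-down (adjusted p = 0.0050), and was at 0.999 of control after IPPK knock-down. The second probe of this gene, listed under another transcript of PSMG4, went the other way, with 1.57 times control after GLE1 and 1.29 times in DBP5 knocked-down cells (limma adjusted p = 0.00016 and 0.0088). With the mean of both probes the log2 difference after GLE1 knock-down was −0.18 in place of −1.01, and after DBP5 knock-down it was 0.01. The statement on PSMG4 therefore holds for the probe of 1 transcript and not for the gene as a whole.

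Alternative activators and the inhibitor formed the last group. PSME1 and PSME2 build the interferon-inducible activator ring, PSME3 its nuclear relative and PSME4 a large single-chain activator, and PSMF1 binds the core and inhibits it in the test tube. PSME2 fell to 0.795, 0.790 and 0.837 of control when DBP5, GLE1 and IPPK were knocked down. PSME1, its partner, read 10.55, 10.38 and 10.34 in control, 10.07, 10.21 and 10.12 after DBP5, 10.42, 10.63 and 10.57 after GLE1, and 10.16, 10.30 and 10.18 after IPPK knock-down. The GLE1 arrays overlapped the control arrays, and the others lay below them. PSME1 fell to 0.818 after DBP5 (limma adjusted p = 0.0085) and 0.864 after IPPK knock-down (adjusted p = 0.039), and was at 1.09 after GLE1 knock-down without passing the test. PSME3 did not pass the test against control.

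PSMF1 read 12.22, 12.17 and 12.14 in control, 11.72, 11.68 and 11.72 after DBP5, 11.97, 11.89 and 11.91 after GLE1, and 11.27, 11.30 and 11.27 after IPPK knock-down. The groups did not overlap, and the IPPK arrays were lowest. PSMF1 fell to 0.536 of control after IPPK knock-down (log2 difference −0.90 ± 0.04 SE, limma adjusted p = 5.1e-08), and to 0.722 after DBP5 (adjusted p = 6.1e-06) and 0.839 after GLE1 knock-down (adjusted p = 0.00042). The other probes of PSMF1 also fell after IPPK knock-down, to 0.671, 0.680 and 0.521 of control. After GLE1 knock-down they read 1.17, 1.19 and 1.03, so that the direction there depended on the probe. After DBP5 knock-down they read 0.987, 0.966 and 0.812, of which the first 2 did not pass the test (limma adjusted p = 0.85 and 0.53), and the mean of all probes gave a log2 difference of −0.21 in place of −0.47. PSME4 rose to 1.14 times control after DBP5 and fell to 0.802 after GLE1 knock-down, but its second probe read 1.23 and 1.35 times control, so that its fall after GLE1 siRNA was likewise seen with 1 of its 2 probes.

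**Figure D2:**
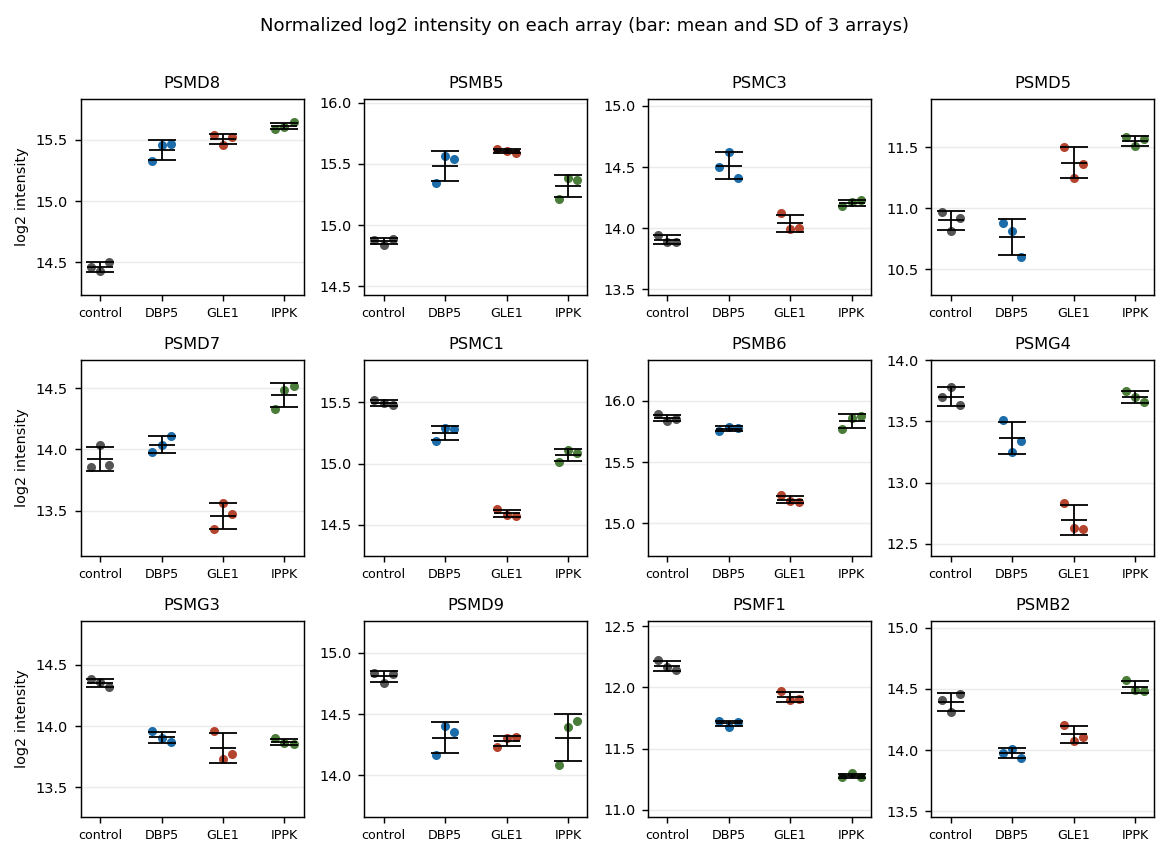
Normalized log2 intensity (y axis) of 12 proteasome genes on each of the 12 arrays, by siRNA (x axis). Points are single arrays and bars are the mean and SD of 3 arrays; each panel spans 1.6 log2 units and levels of different genes are not comparable. PSMD8 and PSMB5 were above control on every knocked-down array, and PSMD7 was lowest after GLE1 and highest after IPPK knock-down.

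Several members have more than 1 probe, which gives a check on the same arrays. For 12 members at least 2 probes were tested. Probes of PSMB1, PSMB2, PSMC1 and PSMD1 gave like values in all 3 comparisons with control. Those of PSMG4, PSME4, PSMF1, PSMA1 and PSMD2 lay on both sides of the control level after GLE1 knock-down, those of PSMD5 and PSMG4 after DBP5 knock-down, and those of PSME4 after IPPK knock-down. PSMA1 was at 0.875 of control after GLE1 knock-down by the brighter probe and at 1.11 by the other, which did not pass the test. PSMD8, PSMB5, PSMB6, PSMC3, PSMC4, PSMD7 and PSMG3 were each measured with 1 probe.

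**Figure D3:**
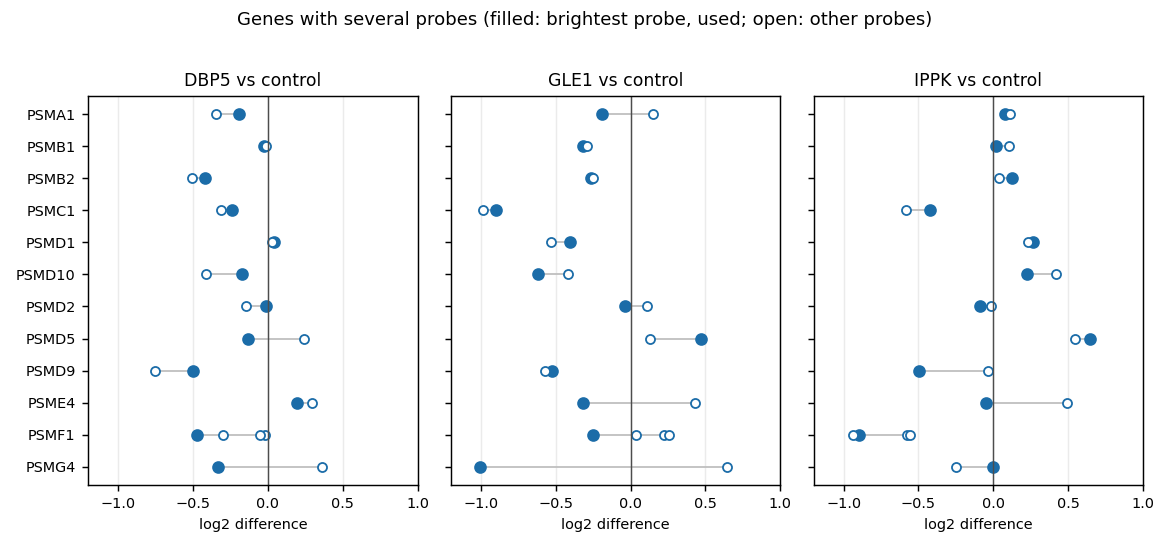
Log2 difference from control (x axis) in the DBP5, GLE1 and IPPK knock-downs for each tested probe of the 12 proteasome genes with more than 1 tested probe (y axis). Filled circles are the brightest probe of a gene, whose values are used in the text, and open circles the other probes. PSMG4 had probes at −1.01 and 0.65 after GLE1 knock-down, whereas both PSMC1 probes lay at or below −0.90.

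The study asked whether the 3 export factors affect the same transcripts, and the knock-downs were compared directly for this. Between GLE1 and DBP5 knock-down 19 members were lower and 8 higher after GLE1 siRNA, beside 27.2% and 27.7% of all genes. Between GLE1 and IPPK knock-down 24 members were lower and 6 higher after GLE1 siRNA, beside 29.6% and 31.2% of all genes. Between DBP5 and IPPK knock-down 17 were lower and 7 higher after DBP5 siRNA, beside 24.4% and 24.7% of all genes. Median log2 differences of the members were −0.07, −0.22 and −0.09, and those of all genes 0.04, 0.04 and 0.01. The median between GLE1 and DBP5 knock-down was not steady in size: it was −0.03 with the arrays scaled to their 75th percentile, −0.15, −0.04 and −0.05 without GLE1 replicate 1, 2 and 3, and −0.12 without DBP5 replicate 3. Within slides 1, 2 and 3 it was −0.08, −0.12 and −0.11. Set singly against the mean of the DBP5 arrays, which leaves the slide aside, the GLE1 arrays gave medians of 0.01, −0.10 and −0.14. When single arrays were left out the count of 17 lower members was the least steady of these counts, since it fell to 10 without IPPK replicate 3 and to 11 without IPPK replicate 1, IPPK replicate 2 or DBP5 replicate 3. Differences that passed the test and reached 1.5-fold were found for 3, 8 and 1 of the members, where all genes gave 25, 29.5 and 18.9%. By direction, 2 members were lower and 1 higher in GLE1 than in DBP5 knocked-down cells (all genes 13.1 and 11.9%), 7 lower and 1 higher in GLE1 than in IPPK (14.9 and 14.6%), and 1 lower and 0 higher in DBP5 than in IPPK knocked-down cells (9.14 and 9.74%).

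Most base ATPases were lower after GLE1 than after the other knock-downs. All 6 were lower after GLE1 than after IPPK knock-down, where 29.6% of all genes were called lower, with ratios from 0.719 for PSMC1 to 0.889 for PSMC3. Against DBP5 knock-down 5 of 6 were lower (27.2% of all genes), with ratios from 0.633 for PSMC1 to 0.815 for PSMC6, and PSMC2 at 0.913 did not pass the test. Every GLE1 array lay below every IPPK array for 5 of the 6 ATPases, all but PSMC5. Over all genes this held for 6794 of the 20821 tested. Under the alternative processing and with single arrays left out, PSMC1 and PSMC5 passed the test against IPPK knock-down every time except that PSMC5 lost it in the methods' t-test, whereas PSMC2, PSMC3 and PSMC4 lost it under several settings and PSMC6 without GLE1 replicate 2, GLE1 replicate 3 or IPPK replicate 1. In the methods' t-test after Benjamini-Hochberg adjustment PSMC3 and PSMC4 also lost it against IPPK knock-down, and PSMC3, PSMC4, PSMC5 and PSMC6 against DBP5 knock-down, which left PSMC1 there. Against DBP5 knock-down PSMC5 also lost it with quantile normalization and without DBP5 replicate 1, DBP5 replicate 2, GLE1 replicate 2 or GLE1 replicate 3.

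Single members differed between knock-downs in all parts of the complex. PSMG4 was at 0.499 and PSMD7 at 0.506 of its IPPK level after GLE1 knock-down (limma adjusted p = 1.8e-06 and 1.4e-06), although PSMG4 no longer passed the test with the mean of its probes (log2 difference −0.05, adjusted p = 0.47) and its second probe was higher after GLE1 knock-down, at 1.86 times its IPPK level (adjusted p = 1.6e-05). PSMD10 was at 0.557, PSMD1 at 0.629, PSMB6 at 0.641, PSMA3 at 0.646 and PSMG2 at 0.651 of their IPPK levels after GLE1 knock-down. PSMF1 was higher after GLE1 than after IPPK knock-down by 1.57-fold (adjusted p = 4.3e-07), and PSME1 by 1.26-fold (adjusted p = 0.0037). Against DBP5 knock-down PSMC1 and PSMG4 were the lowest after GLE1 siRNA, at 0.633 and 0.628, and PSMD5 and PSME1 the highest, at 1.52 and 1.33. The second probe of PSMG4 was higher after GLE1 siRNA in this comparison, at 1.22 (limma adjusted p = 0.029). The ratio of PSMD5 was 0.923 by its second probe and did not pass the test.

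Between DBP5 and IPPK knock-down PSMD5 differed most, at 0.580 of its IPPK level after DBP5 siRNA (limma adjusted p = 2.9e-05), and its second probe read 0.812. PSMB2 was at 0.686 (adjusted p = 2.2e-05), while PSMF1 at 1.35 and PSMC4 at 1.28 were higher after DBP5 knock-down (adjusted p = 1.7e-05 and 0.0045). PSMA5, PSMD1, PSMD7, PSMD10 and PSMG2 fell after GLE1 and rose after IPPK knock-down relative to control, and the direct difference passed the test for each of them. For PSMD8 the knock-downs were close to each other. Its log2 difference was 0.09 between GLE1 and DBP5 (95% interval −0.02 to 0.20) and −0.11 between GLE1 and IPPK knock-down (−0.22 to 0.01), and it was lower after DBP5 than after IPPK knock-down (−0.20, −0.31 to −0.08).

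**Figure D4:**
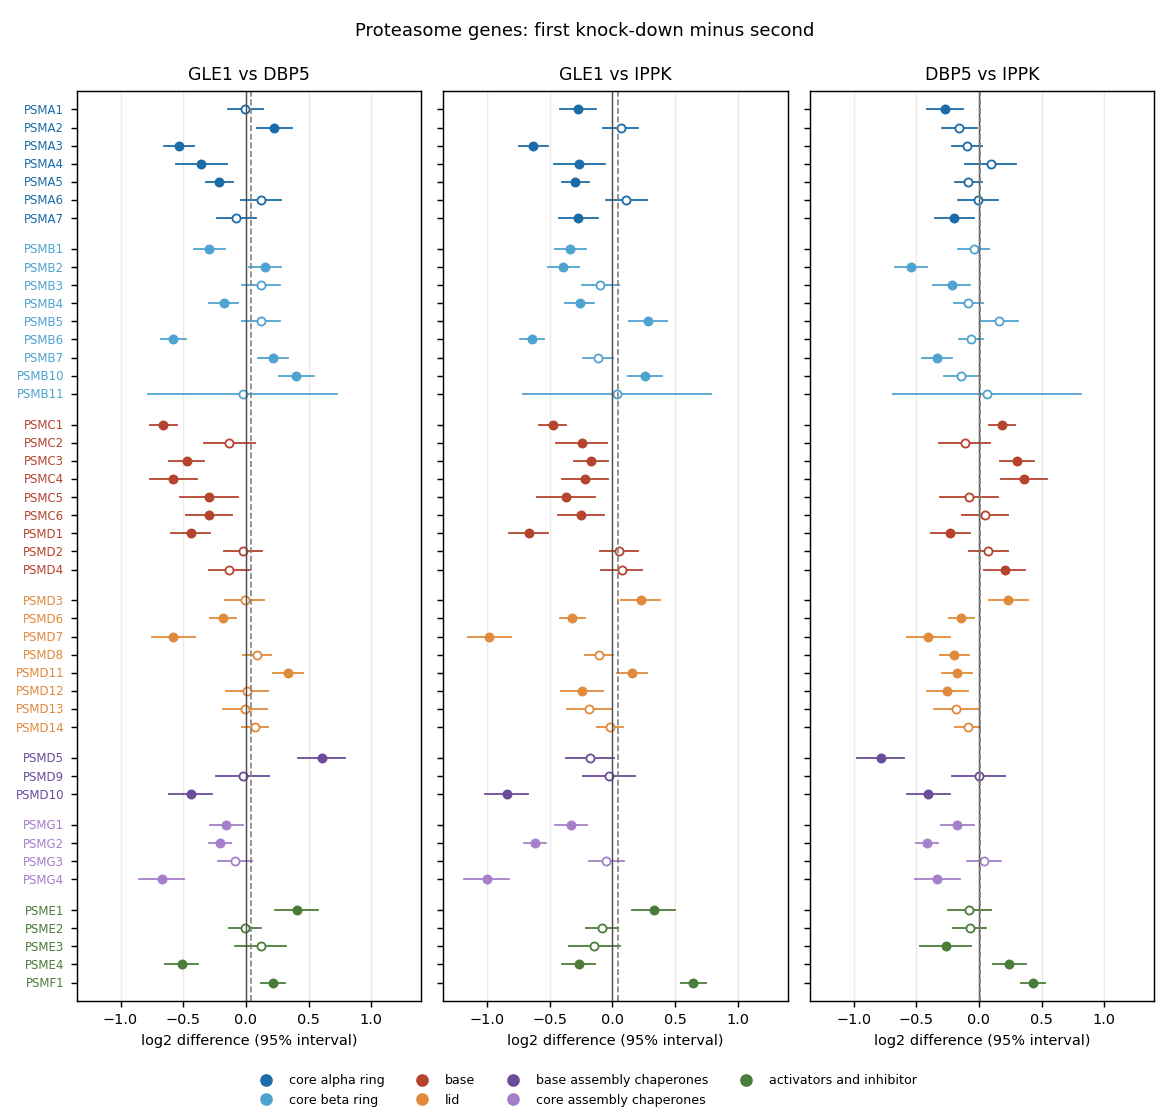
Log2 difference between knock-downs of the 45 tested proteasome genes (x axis, first siRNA minus second) with 95% intervals from limma and 3 arrays per siRNA; genes are on the y axis and are coloured by part of the complex. Filled circles have a limma adjusted p under 0.05, and the dashed line is the median of all genes tested. The 6 ATPases PSMC1 to PSMC6 all lie left of 0 in the panel of GLE1 and IPPK knock-down, and PSMG4 and PSMD7 lie farthest left there, the latter at −0.98.

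Proteasome genes are known to be induced together by the transcription factors NFE2L1 and NFE2L2, which bind antioxidant response elements, and their promoters also hold sites of NF-Y and ETS factors. The 250 bases before the start of each gene were therefore read from RefSeq (GRCh38.p14), which held them for 40 of the 46 members and 27305 genes in all. The letters TGACNNNGC of the antioxidant response element, on either strand, were found in 10 members, which is 25% beside 11.03% of all promoters. CCAAT, the NF-Y box, was found in 17 members (42.5%, all promoters 33.0%) and the ETS letters CCGGAAGT in 6 (15%, all promoters 3.64%). No promoter was assayed here and no test was made on these shares. PSMD5, PSMD9, PSMG1, PSMG2, PSME1, PSME2 and PSME4 were among the 10 with the antioxidant response letters, and these genes moved in both directions.

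The upstream sequences of the 2 members that rose in all knock-downs by the most, PSMD8 and PSMB5, and of the 2 with the lowest values of their brightest probe after GLE1 knock-down, PSMC1 and PSMG4, are shown so that they can be set side by side. For PSMG4 the fall was seen with 1 of its 2 probes, as given above. Each runs 5′ to 3′ on the strand of the gene and ends at the base before its start, and capitals mark matches to the letters given above. PSMD8 held CCAAT and CCGGAAGT, both on the opposite strand, PSMB5 held CCAAT, and PSMC1 and PSMG4 held none of the 3 motifs in this window.
PSMD8, chr19:38374321-38374570, plus strand: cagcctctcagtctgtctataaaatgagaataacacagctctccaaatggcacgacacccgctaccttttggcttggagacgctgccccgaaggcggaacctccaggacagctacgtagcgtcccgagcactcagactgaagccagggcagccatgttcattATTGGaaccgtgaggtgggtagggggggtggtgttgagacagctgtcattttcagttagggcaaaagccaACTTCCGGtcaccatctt
PSMB5, chr14:23035221-23035470, minus strand: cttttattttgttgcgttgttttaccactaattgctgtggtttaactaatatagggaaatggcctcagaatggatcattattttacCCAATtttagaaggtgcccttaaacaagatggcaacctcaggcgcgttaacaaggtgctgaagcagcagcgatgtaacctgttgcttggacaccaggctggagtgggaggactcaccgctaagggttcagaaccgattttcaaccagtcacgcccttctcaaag
PSMC1, chr14:90256303-90256552, plus strand: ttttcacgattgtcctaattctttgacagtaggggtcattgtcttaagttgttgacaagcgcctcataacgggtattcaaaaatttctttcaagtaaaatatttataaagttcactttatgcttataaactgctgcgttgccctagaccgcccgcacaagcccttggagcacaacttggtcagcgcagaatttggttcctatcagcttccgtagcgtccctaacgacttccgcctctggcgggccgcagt
PSMG4, chr6:3258697-3258946, plus strand: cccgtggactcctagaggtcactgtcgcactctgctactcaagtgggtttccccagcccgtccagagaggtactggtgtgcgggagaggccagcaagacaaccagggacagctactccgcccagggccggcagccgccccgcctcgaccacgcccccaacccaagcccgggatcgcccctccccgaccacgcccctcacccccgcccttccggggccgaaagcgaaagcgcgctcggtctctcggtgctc

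Other genes of the ubiquitin and proteasome pathway were read beside the members from a list of 29. ECPAS had no named probe, and NFE2L2 was well above background on 3 arrays and was not tested. Of the 27 tested, 7 fell (25.9%) and 9 rose (33.3%) after DBP5 knock-down, beside 27.1% and 27.3% of all genes. After GLE1 knock-down 7 fell (25.9%) and 12 rose (44.4%), beside 30.4% and 32% of all genes. After IPPK knock-down 12 fell (44.4%) and 4 rose (14.8%), beside 28.2% and 27.3% of all genes. The median log2 difference of the 27 genes was 0.02, 0.09 and −0.14, and that of all genes −0.02, 0.03 and −0.03.

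Subunits and enzymes bound to the proteasome did not move as a block. ADRM1, a ubiquitin receptor of the base, and UCHL5, the deubiquitinating enzyme it recruits, both fell after GLE1 knock-down, to 0.541 and 0.578 of control (limma adjusted p = 8.4e-06 and 6.9e-07). Both also fell after DBP5, to 0.779 and 0.857, and after IPPK knock-down, to 0.693 and 0.725. USP14, the other deubiquitinating enzyme of the regulatory particle, rose in all knock-downs, to 1.28, 1.80 and 2.27 times control with DBP5, GLE1 and IPPK siRNA (adjusted p = 0.00041, 3.7e-07 and 5.6e-08). POMP, which matures the core and works after the PSMG chaperones, rose to 1.87 times control after GLE1 knock-down (adjusted p = 0.00018). NFE2L1 rose to 1.39 and NGLY1, the enzyme that processes it, to 1.41 times control after GLE1 knock-down, and both fell after IPPK knock-down, to 0.787 and 0.818.

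Shuttle factors carry ubiquitinated proteins to the proteasome. RAD23B rose to 2.14 times control after GLE1 knock-down and fell to 0.583 when IPPK was knocked down (limma adjusted p = 4.1e-08 and 8.4e-07), and its level after GLE1 was 3.66 times that after IPPK knock-down. UBQLN4 fell to 0.352 of control after IPPK knock-down (adjusted p = 1.4e-08) and was at 0.940 and 1.02 after DBP5 and GLE1 knock-down without passing the test. UBQLN1 rose to 1.71 times control after GLE1 and 1.39 times after IPPK knock-down (adjusted p = 7.5e-06 and 0.00038). It was at 1.11 after DBP5 knock-down without passing the test. ZFAND2A, a stress-induced partner of the regulatory particle, fell to 0.620, 0.625 and 0.792 of control when DBP5, GLE1 and IPPK were knocked down (adjusted p = 1.2e-05, 8.8e-06 and 0.0018).

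**Figure D5:**
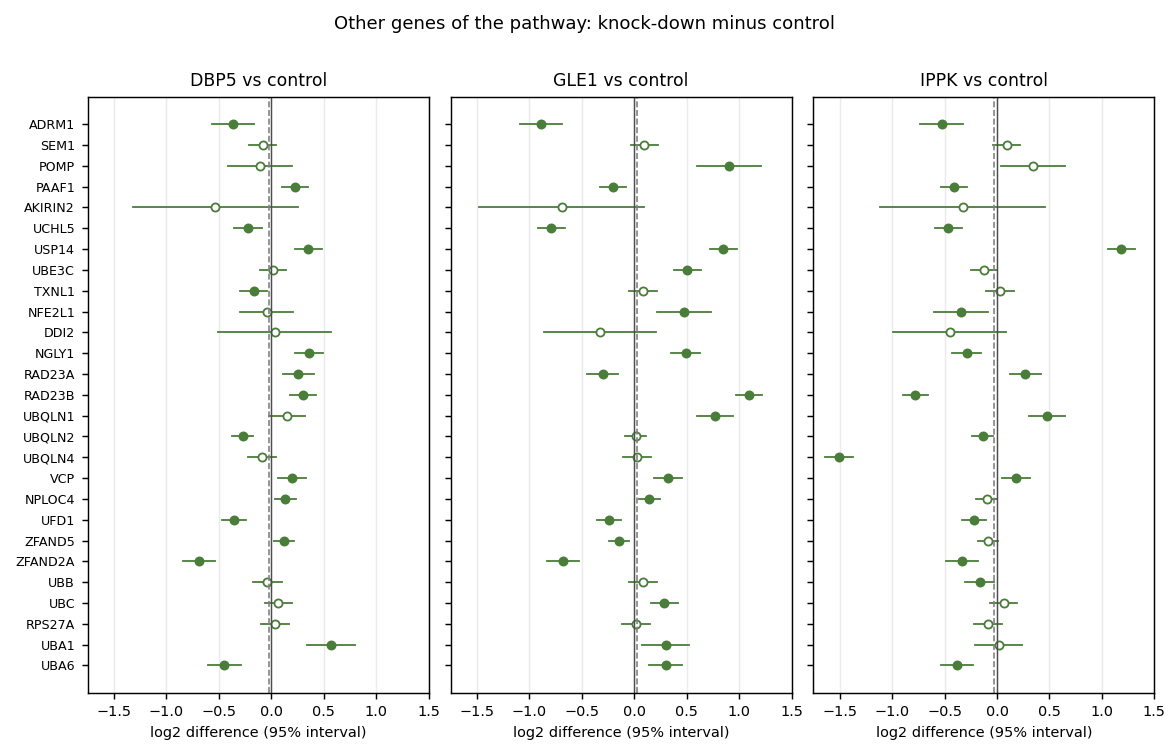
Log2 difference from control (x axis) in the DBP5, GLE1 and IPPK knock-downs of 27 other genes of the ubiquitin and proteasome pathway (y axis), with 95% intervals from limma and 3 arrays per siRNA. Filled circles have a limma adjusted p under 0.05, and the dashed line is the median of all genes tested. RAD23B and USP14 lie farthest right after GLE1 and IPPK knock-down (1.10 and 1.19), and UBQLN4 lies farthest left after IPPK knock-down (−1.51).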

How the data were processed

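Cytoplasmic RNA of U2OS cells was labelled with Cy3 and hybridised to Agilent whole human genome 4x44K v2 arrays, 3 for each of 4 siRNAs. The deposited files are scanner output, whose processed signal is an intensity that the scanner software had corrected for background, with flags of other kinds for outlier and background spots. A table of log2 values that the authors normalized by LOESS was also deposited and used as an alternative.

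Here log2 of the processed intensity was taken without control and outlier spots, the arrays were normalized to each other by cyclic loess, and spots of a probe were averaged. Through unversioned RefSeq accessions 26449 of 34127 probes (77.5%) received a gene symbol; the others kept the name in the file. For each gene the probe with the highest mean was used, and a gene was tested if this probe exceeded the background flag on each of the 3 arrays of 1 or more siRNAs (20821 genes). The test was limma 3.58.1 in R 4.3.3, fitted to the 12 arrays together with a mean for each siRNA. Adjustment was by Benjamini-Hochberg per comparison, at 0.05. Ratios are 2 to the power of the log2 difference. Arrays give no counts, and their number limits the precision. The deposited labels do not say whether replicates came from separate cultures, but the study's methods speak of independent experiments.

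The same replicate number marks the same slide. Deviations of same-numbered arrays from their group means correlated at 0.318 to 0.513 over all genes (18 pairs), and those of other arrays at −0.285 to −0.0493 (36 pairs), so that the numbers pair the arrays. Values on all 12 arrays are given for the 3 members that fell most and the 3 that rose most against control among those that passed the test and were well above background on all arrays, and for the 2 in each direction between knock-downs. Other pathway genes are named where a called change against control reached 1.5-fold; NFE2L1 and NGLY1 were named after their values were seen, and 1 further gene is not reported here. The members and lists were chosen with earlier results of these data known. The fit was tested on simulated data. Alternatives were other normalizations, background corrections, filters and probe rules, the slide as a block, the methods' values, a t-test and leaving out each array.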

Additional observations from a re-analysis of the deposited data

How the results depend on the processing

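Counts of members that fell or rose stayed within 1.5 times of the reported ones under all other normalizations, background corrections, filters and probe rules. The exceptions follow. The methods' t-test, paired, with Benjamini-Hochberg adjustment over all genes called fewer members, with 3 lower and 2 higher after DBP5, 16 lower after GLE1 and 5 lower after IPPK knock-down. It called 9 lower and 3 higher between GLE1 and DBP5 knock-down, and 7 lower and 2 higher between DBP5 and IPPK knock-down. With only the 6 arrays compared, 10 members were lower and 4 higher between DBP5 and IPPK knock-down. Scaling each array to its 75th percentile gave a median log2 difference of −0.191 for the members with DBP5 siRNA and −0.0710 with IPPK siRNA, where that of all genes was −0.05 and −0.08, and that of all genes between GLE1 and IPPK knock-down was 0.12. The median after IPPK knock-down was −0.0129 without a filter on dim probes and also with a filter on all 12 arrays.

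When single arrays were left out, the median of the members lay between −0.164 and −0.0900 for DBP5, −0.277 and −0.173 for GLE1 and −0.0318 and 0.0175 for IPPK knock-down. The sign after IPPK knock-down turned without control replicate 2 (0.0175). The number of lower members ranged from 10 to 17 between DBP5 and IPPK knock-down. Against control, leaving out 1 array ended the calls of PSMA1, PSMC2 and PSME4 after DBP5, of PSMA1, PSMA5, PSMA7 and PSMB10 after GLE1, and of PSMC6, PSMD4, PSMD10, PSMD13 and PSME1 after IPPK knock-down for 2 or more of the arrays. The call of PSMA2 after IPPK knock-down was lost without IPPK replicate 1, that of PSMA5 without control replicate 3, and that of PSMD14 without control replicate 2 or IPPK replicate 2. Between knock-downs 21 of 27 calls (GLE1 and DBP5), 20 of 30 (GLE1 and IPPK) and 11 of 24 (DBP5 and IPPK) held under every alternative other than the t-test.

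With the replicate number (the slide) as a block, 21 members fell and 5 rose after DBP5, 27 and 5 after GLE1, and 12 and 12 after IPPK knock-down. Under this block only the call of PSMG1 between GLE1 and DBP5 knock-down was lost, and PSMB3 and PSMD10 after DBP5, PSMA6 and PSMD4 after GLE1 and PSMA2 between DBP5 and IPPK knock-down were gained.

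With the mean of a gene's probes the direction turned for PSMG4 after DBP5 knock-down (0.0137) and between DBP5 and IPPK knock-down (0.139), and for PSME4 (0.0562) and PSMF1 (0.0657) after GLE1 knock-down. None of these values passed the test. The cause of these differences was not tested. Where arrays were left out, the fit also held fewer arrays.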
